A study of Mus musculus with 8 samples.

Results

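Forkhead (Fox) proteins are transcription factors that share the winged-helix domain from which they take their name, and are sorted into subfamilies by the sequence of that domain. Of 21950 genes examined in both cell populations, 38 carried a Fox symbol made of a subfamily letter from a to s and a number. These 38 genes were followed here. The measurement was bulk RNA-seq of 8 libraries, 4 of d6PGCLCs and 4 of E12.5 PGCs. d6PGCLCs, germ cell-like cells induced in culture, came from a single female BVSC-iPSC line, derived from adult tail tip fibroblasts and carrying the reporters Blimp1-Venus and Stella-ECFP. They were taken 6 days after the EpiLC stage, which is day 8 of culture, and sorted as positive for both reporters. PGCs, the embryonic cells that give rise to the gametes, were sorted for SSEA1 and integrin β3 from female gonads of inbred C57BL/6J fetuses at E12.5. Each library was 1 pool of cells from an independent experiment, and held between 7991437 and 12024841 counted reads. Line, sort and time of collection all differ between the groups and cannot be told apart from the cell type.

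FoxO proteins act at the end of insulin and PI3K-AKT signalling, which sends them out of the nucleus. FoxH1 binds SMAD proteins and passes Nodal and activin signals to target genes. FoxA proteins open closed chromatin in endoderm, FoxC and FoxF proteins work in mesoderm and mesenchyme, and FoxJ1 switches on the genes of motile cilia. In the germ line the family is best known for FOXO3, which holds primordial follicles at rest, and FOXO1, which male germline stem cells require.

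Promoter sequences from 250 bases before to 50 after the start site were available from RefSeq (GRCm38.p6) for 24 of the 38 genes, 29 promoters in all. Of these, 4 are spelled out here in 5′ to 3′ direction of the gene with CG dinucleotides in capitals. They belong to genes described below that differed between d6PGCLCs and PGCs. Foxr1 and Foxi1 were lower in d6PGCLCs, Foxp4 was higher and Foxa1 was all but absent from them. The start site that RefSeq lists for this Foxa1 promoter lies within the span of the gene, downstream of its outer end.
Foxr1, chr9:44440819-44441118, minus strand: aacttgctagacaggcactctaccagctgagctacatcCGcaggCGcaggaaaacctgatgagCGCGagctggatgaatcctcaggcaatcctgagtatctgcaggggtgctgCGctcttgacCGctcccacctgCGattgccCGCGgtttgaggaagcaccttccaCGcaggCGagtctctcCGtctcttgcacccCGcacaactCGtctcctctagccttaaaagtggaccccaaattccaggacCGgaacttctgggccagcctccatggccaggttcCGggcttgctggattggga
Foxi1, chr11:34208040-34208339, minus strand: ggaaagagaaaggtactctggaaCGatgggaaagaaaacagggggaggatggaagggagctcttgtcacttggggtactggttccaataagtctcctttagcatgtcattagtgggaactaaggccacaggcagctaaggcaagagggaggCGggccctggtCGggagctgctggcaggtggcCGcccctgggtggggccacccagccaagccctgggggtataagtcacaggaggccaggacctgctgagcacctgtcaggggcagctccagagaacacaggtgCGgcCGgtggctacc
Foxp4, chr17:47924583-47924882, minus strand: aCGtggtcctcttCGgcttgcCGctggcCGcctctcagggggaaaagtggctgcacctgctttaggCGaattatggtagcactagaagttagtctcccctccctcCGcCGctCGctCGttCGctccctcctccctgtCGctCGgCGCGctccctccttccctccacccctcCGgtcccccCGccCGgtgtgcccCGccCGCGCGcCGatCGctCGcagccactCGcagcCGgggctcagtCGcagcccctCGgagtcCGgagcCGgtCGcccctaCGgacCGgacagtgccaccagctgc
Foxa1, chr12:57546062-57546361, minus strand: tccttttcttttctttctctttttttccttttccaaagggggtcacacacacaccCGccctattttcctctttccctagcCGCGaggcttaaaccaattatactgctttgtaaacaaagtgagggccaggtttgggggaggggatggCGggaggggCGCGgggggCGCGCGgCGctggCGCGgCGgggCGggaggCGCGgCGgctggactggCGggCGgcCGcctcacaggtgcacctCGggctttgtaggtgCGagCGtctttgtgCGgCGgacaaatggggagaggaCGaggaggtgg

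The promoter of Foxp4 held 33 CG dinucleotides, that of Foxa1 26, that of Foxr1 16 and that of Foxi1 6. Over the 29 forkhead promoters the median was 15, against 7 over all 32851 promoters of the table. With the promoter richest in CG taken for each gene, the median was 31 for 11 genes with a mean level of at least 1 CPM, 22.5 for 10 genes counted below that level and 10 for 3 genes with no count. Level and CG content therefore ran in the same order across these 3 sets, with wide ranges (6 to 59, 3 to 32, and 5 to 10). Of 17 forkhead genes at or above 1 CPM, only 11 had a promoter entry, and Foxh1, Foxo4, Foxk1 and Foxn2 had none. Whether genes outside the family show the same order was not examined. Motif letters were searched on both strands. The forkhead motif GTAAACA was in 1 of the 29 promoters (3.45%), against 3.65% of all promoters. This was the promoter of Foxa1, where the motif lies at bases 110 to 116 of the sequence above and begins 141 bases before the start site. The E-box CACGTG was in 1 promoter (3.45%, against 7.15%), the E2F-type TTCCCGC in 3 (10.3%, against 4.6%) and the octamer ATGCAAAT in none of the 29 (against 1.74%).

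Among the 38 genes, 17 had a mean level of at least 1 CPM (counted reads scaled to a common library size by TMM), 15 were counted below that level and 6 (Foxb2, Foxe3, Foxi2, Foxl1, Foxp2 and Foxs1) had no count in any library. A gene was called when its Benjamini-Hochberg adjusted p in edgeR's quasi-likelihood test, fitted over all 21950 genes, was at most 0.05. By this rule 6 forkhead genes were higher in d6PGCLCs (15.8%), and the share over all genes was 16.1%. In turn, 10 forkhead genes were lower (26.3%), and the share over all genes was 15.4%. When an absolute log2 fold change of 2 or more was required as well, 1 gene was higher (2.63%, against 3.24% of all genes) and 6 were lower (15.8%, against 3.37%). These were Foxj1 on the one side and Foxr1, Foxo6, Foxa1, Foxa2, Foxc1 and Foxf1 on the other. Of these, Foxa1, Foxa2, Foxc1 and Foxf1 had so few counts in d6PGCLCs that their fitted fold change depends on the prior count. With a prior count of 2, 3 genes were lower by that size and none higher (0). With a filter on low counts (filterByExpr), 2 were lower. The groups were fully separated in 5 genes that were higher and 7 that were lower in d6PGCLCs, or 13.2% and 18.4% of the family, where 15.4% and 14.8% of all genes were separated in these directions. The median log2 fold change of the family was -0.21, and 0 when genes with no count in one group were set to their bound. Over all genes it was 0.

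**Figure D1:**
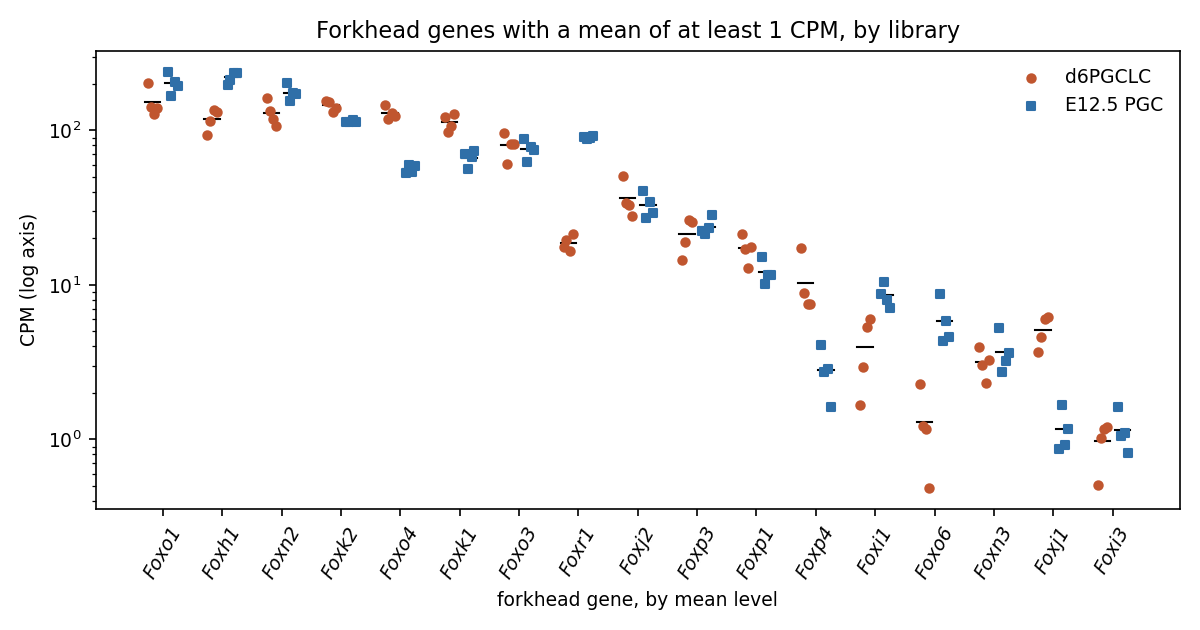
Level of the 17 forkhead genes with a mean of at least 1 CPM in each of the 8 libraries (log axis), with circles for d6PGCLC and squares for E12.5 PGC libraries and black lines for group means. Foxr1, Foxo4, Foxj1 and Foxp4 show 2 separate clouds, whereas those of Foxo3, Foxj2 and Foxp3 overlap.

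The gene with the most transcript per length in both populations was Foxh1 (chr15:76667829-76671614), the SMAD partner of the Nodal pathway. It was counted at 93.0, 116, 135 and 132 CPM in the 4 d6PGCLC libraries and at 198, 211, 237 and 236 CPM in the PGC libraries. All d6PGCLC libraries were below all PGC libraries, with means of 119 ± 19.4 and 220 ± 19.2 CPM (SD, n = 4). The log2 fold change, here and below d6PGCLC over PGC, was -0.89 ± 0.11 (SE, adjusted p = 1.38e-06). Per kilobase of exon Foxh1 reached 80.2 ± 13.1 RPKM in d6PGCLCs and 148 ± 12.9 RPKM in PGCs (SD, n = 4). That was 29.3% of the summed RPKM of all 38 genes in d6PGCLCs and 40.8% in PGCs. The whole family summed to 275 ± 12.7 RPKM and 364 ± 17.04 RPKM, that is, a lower sum in every d6PGCLC library (257 to 287) than in any PGC library (338 to 375). Without Foxh1 and Foxr1 the sum was 184 ± 21.1 RPKM in d6PGCLCs and 167 ± 15.4 RPKM in PGCs, with overlapping libraries (169 to 215 and 149.7 to 187).

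Other genes of the Nodal pathway moved both ways. Of 18 ligands, receptors, SMADs and targets measured, 7 were higher in d6PGCLCs, 4 were lower and 7 were not called. These shares, 38.9% and 22.2%, stand beside 16.1% and 15.4% of all genes. Their median log2 fold change was 0.16. Tdgf1, which encodes the Nodal co-receptor CRIPTO, averaged 131 ± 16.2 CPM across the d6PGCLC libraries and 6.32 ± 1.88 CPM across the PGC libraries (log2 fold change 4.35 ± 0.16, adjusted p = 3.53e-14). Lefty2 and Lefty1, which encode Nodal inhibitors, rose by 3.38 ± 0.25 (adjusted p = 1.20e-09) and 3.03 ± 0.28 (adjusted p = 1.69e-08) on the log2 scale. Nodal itself was higher by 1.20 ± 0.18 (46.4 ± 11.0 against 20.2 ± 5.11 CPM, adjusted p = 2.04e-05). The 4 lower genes, named here after their values were seen, were Smad2, a SMAD that FoxH1 binds (151 ± 17.7 against 220 ± 24.3 CPM, log2 fold change -0.55 ± 0.10, adjusted p = 0.000213), and the target genes Mixl1, T and Fgf8, each with a mean under 2 CPM in both groups. Smad3, which encodes another SMAD partner of FoxH1, was not called (65.2 ± 5.53 against 57.6 ± 3.13 CPM). Cer1, which encodes a further Nodal inhibitor, had 0 counts in d6PGCLCs and 5 in PGCs and was not called.

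A larger difference was found for Foxr1 (chr9:44434234-44440868), a divergent member of the family known from oocytes. It was measured at 17.5, 19.6, 16.5 and 21.3 CPM in d6PGCLCs, and at 90.3, 87.4, 89.9 and 91.9 CPM in PGCs. The values of each group lay close together and far from those of the other. The log2 fold change was -2.26 ± 0.11 (adjusted p = 3.09e-12). In PGCs Foxr1 was at rank 2 of the family per kilobase, at 48.2 ± 0.986 RPKM. In d6PGCLCs it was at rank 8, at 10.05 ± 1.16 RPKM. Its paralog Foxr2 lay between 0.204 and 1.09 CPM in d6PGCLCs and between 0.316 and 0.998 CPM in PGCs, and was not called.

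The order of the leading genes differed between the groups. In d6PGCLCs Foxh1 was followed by Foxo4 (39.6 ± 3.74 RPKM), Foxo3 (29.8 ± 5.55), Foxo1 (27.1 ± 5.93), Foxk2 (25.5 ± 1.91), Foxn2 (23.9 ± 4.31), Foxk1 (14.6 ± 1.76) and Foxr1. The genes from Foxo3 to Foxn2 lay within 1 SD of their neighbours. In PGCs the order after Foxh1 and Foxr1 was Foxo1 (35.6 ± 5.33 RPKM), Foxn2 (32.2 ± 3.59), Foxo3 (28.2 ± 3.92), Foxk2 (20.0 ± 0.337), Foxo4 (17.2 ± 1.06) and Foxk1 (8.56 ± 0.929). There Foxo1 and Foxn2 lay within 1 SD of each other, and Foxn2 and Foxo3 differed by little more than 1 SD. RPKM rest on 1 counted isoform per gene. For Foxo3 that isoform was 39.3% and for Foxo1 65.5% as long as the longest annotated transcript, so that their level per kilobase depends on that choice.

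**Figure D2:**
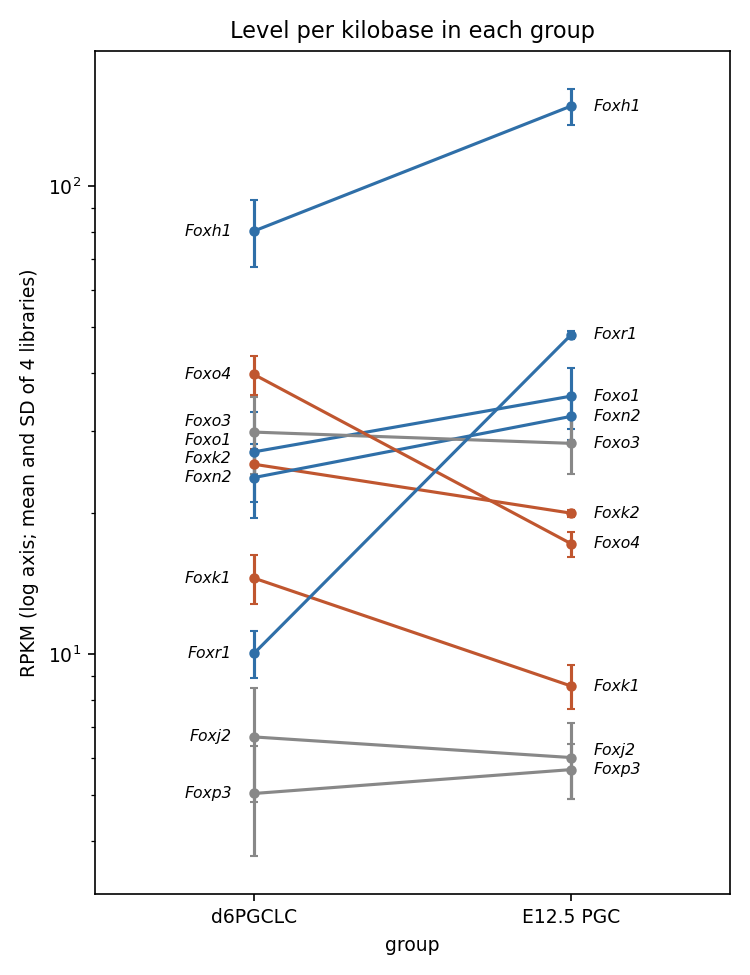
Level per kilobase (RPKM, log axis) of the 10 forkhead genes that reached at least 5 RPKM in either group, as mean and SD of 4 libraries, with orange lines for genes called higher in d6PGCLCs, blue for lower and grey for not called. Foxr1 falls from rank 2 in PGCs to rank 8 in d6PGCLCs, and Foxo4 moves from rank 7 to rank 2.

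Within the FoxO subfamily, Foxo4 was higher and Foxo1 and Foxo6 were lower in d6PGCLCs, and no difference was called for Foxo3. Foxo4 (chrX:101254261-101260873) was at 147, 118, 130 and 125 CPM in d6PGCLCs and at 53.3, 59.98, 53.8 and 59.1 CPM in PGCs. The groups were far apart, with a log2 fold change of 1.20 ± 0.10 (adjusted p = 4.60e-09). Foxo1 (chr3:52268337-52350109) was at 203, 142, 129 and 140 CPM in d6PGCLCs and at 240, 168, 207 and 193 CPM in PGCs. Here the highest d6PGCLC library exceeded 2 of the PGC libraries, and the log2 fold change was -0.40 ± 0.13 (adjusted p = 0.0201). This call was lost without d6PGCLC replicate 2, 3 or 4 or E12.5 PGC replicate 1, with adjusted p up to 0.0839. Over all its annotated exons Foxo1 shares 674 bases with an antisense gene, Gm20402, and how the counting treated strand is not stated.

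Foxo3 (chr10:42181845-42276695) was nearly level, at 80.4 ± 14.9 CPM in d6PGCLCs and 76.1 ± 10.6 CPM in PGCs (log2 fold change 0.08 ± 0.13, adjusted p = 0.831). Foxo6, a FoxO gene best known from the brain, was the lowest of the 4. It was at 2.30, 1.22, 1.16 and 0.485 CPM in d6PGCLCs and at 8.73, 4.31, 5.81 and 4.60 CPM in PGCs, with no overlap (log2 fold change -2.18 ± 0.36, adjusted p = 3.66e-05). The summed FoxO level was 97.0 ± 14.3 RPKM in d6PGCLCs and 83.3 ± 9.03 RPKM in PGCs, with overlapping libraries. Of this sum, Foxo4 made up 41.1% ± 2.20 in d6PGCLCs and 20.9% ± 3.42 in PGCs. Foxo1 made up 27.8% ± 2.89 and 42.6% ± 1.81. The share of Foxo3 was 30.7% ± 2.76 and 33.8% ± 1.24, and that of Foxo6 0.496% ± 0.229 and 2.65% ± 0.622 (SD, n = 4). The make-up of the subfamily thus differed more than its sum.

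**Figure D3:**
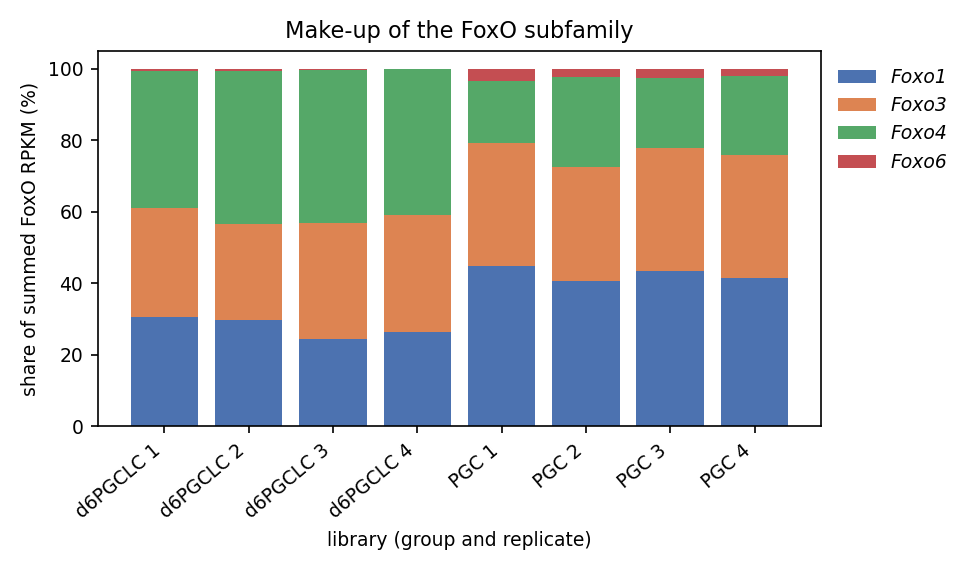
Share of each FoxO gene in the summed FoxO RPKM of each library, in percent, with 1 bar per library. Foxo4 takes 38.1% to 42.9% in the 4 d6PGCLC libraries and 17.1% to 25.1% in the 4 PGC libraries.

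Among 24 kinases, 14-3-3 proteins, ubiquitin ligases and other regulators measured, 11 were higher in d6PGCLCs, 5 were lower and 8 were not called (median log2 fold change 0.15). That is 45.8% higher and 20.8% lower, where the shares over all genes were 16.1% and 15.4%. Sfn, which encodes the 14-3-3 protein σ, had a mean of 68.9 ± 9.66 CPM in d6PGCLCs and of 14.3 ± 2.15 CPM in PGCs (log2 fold change 2.27 ± 0.14, adjusted p = 5.34e-11). Skp2, the substrate subunit of a ubiquitin ligase that takes FOXO1 among other proteins, was higher by 1.48 ± 0.12 (adjusted p = 2.27e-09), and Pik3cb, a catalytic PI3K subunit, by 0.93 ± 0.10 (adjusted p = 1.57e-07). Sgk3, a kinase related to AKT, fell by 1.49 on the log2 scale (14.8 ± 2.90 against 41.4 ± 6.09 CPM, adjusted p = 1.29e-07).

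Of 25 genes known as FoxO targets in various tissues, 12 were higher in d6PGCLCs, 1 was lower and 12 were not called, with a median log2 fold change of 0.37. The shares were 48% and 4%, beside 16.1% and 15.4% of all genes. Cdkn1b, which encodes the cell cycle inhibitor p27, showed the largest of these changes among well counted genes. It averaged 77.5 ± 10.3 CPM in d6PGCLCs and 16.2 ± 1.05 CPM in PGCs (log2 fold change 2.26 ± 0.12, adjusted p = 1.13e-11). Klf2, a zinc finger transcription factor, was higher by 0.70 ± 0.12 (adjusted p = 7.29e-05). Bcl2l11 and Bbc3, which encode the proapoptotic proteins BIM and PUMA, were higher by 0.66 ± 0.11 (adjusted p = 6.76e-05) and 0.64 ± 0.23 (adjusted p = 0.0370). These genes answer to many other factors as well, and no FoxO protein was measured.

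The FoxK genes encode widely expressed repressors that recruit SIN3 and BAP1 complexes, and both were higher in d6PGCLCs without overlap. Foxk1 (chr5:142401497-142462015) was at 123, 97.2, 107 and 127 CPM in d6PGCLCs and at 70.0, 56.5, 67.5 and 73.2 CPM in PGCs (log2 fold change 0.76 ± 0.11, adjusted p = 9.87e-06). Foxk2 (chr11:121259987-121309900) was at 156, 153, 133 and 140 CPM in d6PGCLCs and at 113, 113, 117 and 114 CPM in PGCs (log2 fold change 0.35 ± 0.09, adjusted p = 0.00437). The difference was smaller for Foxk2, whose PGC values (SD 1.92 CPM) lay closest together. Foxk2 made up the larger part of the summed FoxK level, 63.7% ± 3.41 in d6PGCLCs and 70.1% ± 2.29 in PGCs. Of 14 chromatin proteins that bind FoxK or FoxP proteins, 3 were higher, 6 were lower and 5 were not called (median log2 fold change -0.22). These were 21.4% and 42.9%, beside 16.1% and 15.4% of all genes. Ogt, the enzyme that attaches N-acetylglucosamine to proteins, was higher by 0.80 ± 0.09 (adjusted p = 3.58e-07), and Ctbp2, a corepressor, by 0.57 ± 0.08 (adjusted p = 1.22e-05). Hcfc1, a scaffold of BAP1 complexes, changed by -0.71 ± 0.11 (adjusted p = 2.19e-05) and the deacetylase Hdac1 by -0.62 ± 0.10 (adjusted p = 3.02e-05).

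Foxp4 and Foxp1, which encode repressors active in lung, gut and lymphoid development, were higher in d6PGCLCs. Foxp4 (chr17:47867133-47924632) was at 17.4, 8.86, 7.55 and 7.52 CPM in d6PGCLCs and at 4.12, 2.74, 2.86 and 1.62 CPM in PGCs. Replicate 1 was the highest library of either group, and no values overlapped (log2 fold change 1.87 ± 0.30, adjusted p = 3.55e-05). Without d6PGCLC replicate 1 the log2 fold change was 1.51 (adjusted p = 1.77e-05). Foxp1 averaged 17.3 ± 3.55 CPM in d6PGCLCs and 12.1 ± 2.18 CPM in PGCs (log2 fold change 0.51 ± 0.18, adjusted p = 0.0359). Its groups overlapped, and the call was lost with library size or upper quartile normalization, and without d6PGCLC replicate 1, 2 or 4 or E12.5 PGC replicate 2, 3 or 4, with adjusted p up to 0.108. Foxp4 made up 47.8% ± 6.73 of the summed level of these 2 genes in d6PGCLCs and 26.9% ± 5.69 in PGCs.

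Foxp3, the defining factor of regulatory T cells, was counted at 21.2 ± 5.58 CPM in d6PGCLCs and 23.9 ± 3.19 CPM in PGCs (log2 fold change -0.17 ± 0.17, adjusted p = 0.581). These reads could not be assigned to Foxp3 with certainty. Over all its annotated exons, 1443 bases are shared with other genes. Among them are 590 with Ccdc22 and 266 with Ppp1r3f on the opposite strand and 853 with Flicr on the same strand. Ppp1r3f was at 8.68 ± 2.17 and 9.87 ± 1.04 CPM (log2 fold change -0.19 ± 0.20, adjusted p = 0.581). Among 6 markers of blood cells, the macrophage genes Cd68 (12.6 ± 2.32 against 2.25 ± 1.067 CPM, adjusted p = 1.67e-07) and Csf1r (69 counts against 0, adjusted p = 5.34e-06) were higher in d6PGCLCs, Hba-a2, a globin gene, was lower with overlapping groups (0 in d6PGCLCs against 0.624, 5.05, 0 and 0.0903 CPM in PGCs, most of it in replicate 2, adjusted p = 0.00662), and Ptprc, the pan-leukocyte marker, was not called. The 6 markers summed to 12.01 to 17.4 CPM in d6PGCLCs and 1.75 to 9.26 CPM in PGCs, with 3 of 6 at 0 in every d6PGCLC library and 3 of 6 in every PGC library. The part of other cells in the levels of the FoxP genes was not tested. In bulk samples, fewer cells of a type and less RNA per cell cannot be told apart.

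Foxj1 (chr11:116330704-116335499), the master regulator of motile cilia, showed the largest rise of the family on a low level. It was at 3.70, 4.58, 6.06 and 6.18 CPM in d6PGCLCs and at 0.873, 1.68, 0.922 and 1.17 CPM in PGCs. All d6PGCLC libraries exceeded all PGC libraries, and the log2 fold change was 2.13 ± 0.31 (adjusted p = 8.51e-06). Of 22 regulators and components of motile cilia measured, 4 were higher in d6PGCLCs, 4 were lower and 14 were not called (median log2 fold change -0.02). Both shares were 18.2%, near the 16.1% and 15.4% of all genes. The largest change was that of Cfap126, a gene of ciliary basal bodies chosen after its values were seen, which was higher at 7.60 ± 0.538 against 0.592 ± 0.126 CPM (log2 fold change 3.67 ± 0.32, adjusted p = 1.65e-09). Trp73, which encodes p73, was lower, at 6.07 ± 0.686 against 17.9 ± 1.77 CPM (log2 fold change -1.56 ± 0.17, adjusted p = 2.57e-07). Gmnc, which starts the multiciliated cell programme, changed by -1.48 ± 0.25 (adjusted p = 5.91e-05) and the axonemal dynein gene Dnah11 by -1.30 ± 0.15 (adjusted p = 3.50e-07). Rfx2, a ciliary transcription factor, was higher by 0.65 ± 0.09 (adjusted p = 7.73e-06). Foxj2, a broadly expressed relative of Foxj1, averaged 36.3 CPM in d6PGCLCs and 32.8 CPM in PGCs (log2 fold change 0.15 ± 0.17, adjusted p = 0.639).

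Foxi1 (chr11:34204341-34208089), known from the ion-transporting cells of inner ear and kidney, was at 1.66, 2.95, 5.31 and 6.06 CPM in d6PGCLCs and at 8.73, 10.4, 8.02 and 7.13 CPM in PGCs. The d6PGCLC libraries were spread widely, but all lay below the PGC libraries (log2 fold change -1.08 ± 0.28, adjusted p = 0.00468). Foxi3, a gene of the branchial arches and ectodermal appendages, lay near 1 CPM in both groups, from 0.511 to 1.21 CPM in d6PGCLCs and from 0.812 to 1.62 CPM in PGCs, and was not called. Foxn2, a widely expressed gene, averaged 130 ± 23.5 CPM in d6PGCLCs and 176 ± 19.6 CPM in PGCs (log2 fold change -0.43 ± 0.12, adjusted p = 0.00524), with overlap. Foxn3, a repressor linked to cell cycle checkpoints, was at 3.15 and 3.70 CPM (log2 fold change -0.24 ± 0.28, adjusted p = 0.654). Its counted isoform was 21.3% as long as its longest annotated transcript. Of 20 cell cycle genes known as targets of FoxM1, 4 were higher in d6PGCLCs, 5 were lower and 11 were not called (median log2 fold change -0.02), shares (20% and 25%) that were not far from the 16.1% and 15.4% of all genes. Ccnd1, which encodes cyclin D1, changed most among those well counted, from 25.5 ± 8.58 CPM in PGCs to 6.71 ± 7.22 CPM in d6PGCLCs (log2 fold change -1.92 ± 0.46, adjusted p = 0.00236). Its d6PGCLC libraries were spread widely, at 0.893, 1.32, 8.38 and 16.2 CPM, so that their mean depends much on replicate 4. Cdc25c, a phosphatase that starts mitosis, was higher by 1.02 ± 0.11 (adjusted p = 3.32e-07), and the centromere protein gene Cenpf changed by -0.94 ± 0.11 (adjusted p = 5.80e-07).

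**Figure D4:**
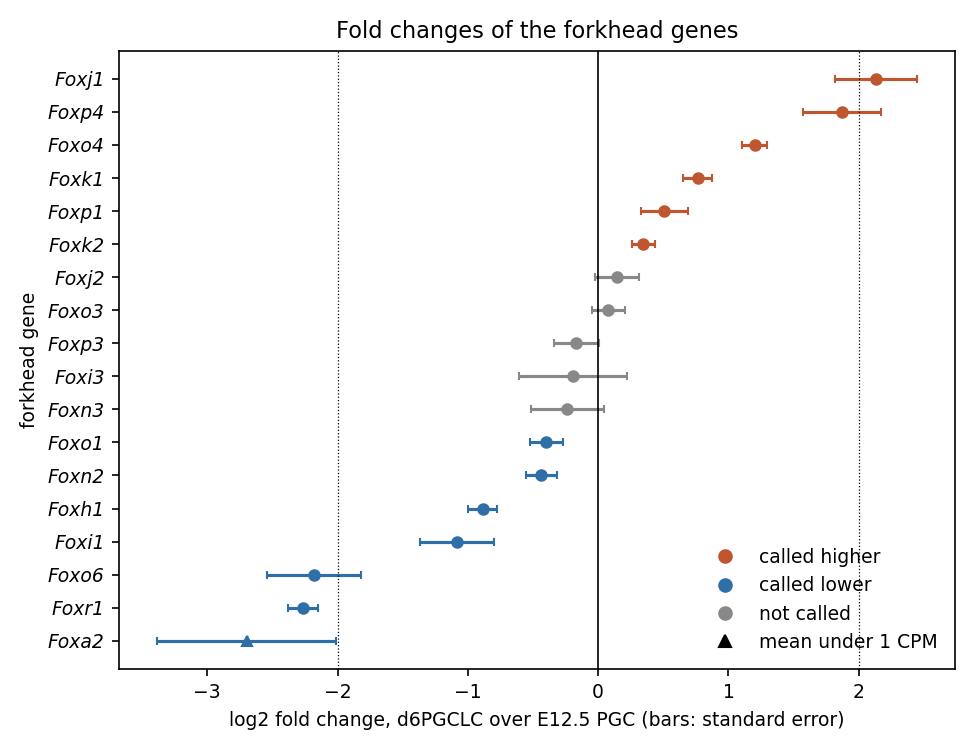
Log2 fold change (d6PGCLC over E12.5 PGC) with standard error for the forkhead genes that were called or had a mean of at least 1 CPM, and more than 3 counts in each group (orange, called higher; blue, called lower; grey, not called; triangle, mean under 1 CPM; dotted lines, -2 and 2). Values run from -2.70 for Foxa2 to 2.13 for Foxj1.

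Forkhead genes of endoderm and mesoderm were near the limit of detection, and where they were counted it was mostly in PGCs. Foxa2 (chr2:148042877-148046969), an endoderm and notochord factor, had 1, 0, 3 and 4 counts in d6PGCLCs and 12, 22, 10 and 12 counts in PGCs. The groups did not overlap (log2 fold change -2.70 ± 0.69, adjusted p = 0.00124). With each library left out in turn the log2 fold change ran from -3.32 to -2.29, and with a prior count of 2 it was -1.98. Foxa1 (chr12:57540628-57548029), which works beside Foxa2 in endoderm, had 0, 0, 0 and 1 counts in d6PGCLCs and 11, 9, 5 and 4 counts in PGCs. With 1 count against 29, the ratio of PGCs over d6PGCLCs was 27.9, with a 95% counting interval from 4.63 to 1140 (adjusted p = 0.00102).

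Foxc1 (chr13:31806646-31810635), a gene of head and somitic mesoderm, had 0, 0, 1 and 1 counts in d6PGCLCs and 11, 1, 3 and 3 counts in PGCs. The ratio of PGCs over d6PGCLCs was 8.66, with an interval from 2.07 to 77.0 (adjusted p = 0.0332). Of the 18 PGC counts, 11 were in replicate 1, and without it the adjusted p was 0.267. Without d6PGCLC replicate 1, 2 or 3 it was 0.0602, 0.0932 and 0.057. Foxf1 (chr8:121084386-121088154), a gene of the mesenchyme around gut and lung, had 0 counts in each d6PGCLC library and 1, 3, 3 and 1 counts in PGCs. With 0 counts against 8, the 95% counting interval of the ratio of PGCs over d6PGCLCs began at 1.64 (adjusted p = 0.0309), and no fold is given since no library held more than 3 counts. This call was lost without any one of the d6PGCLC libraries and without E12.5 PGC replicate 2 or 3, with adjusted p up to 0.0838. With a replicate block in the edgeR fit, neither Foxc1 (adjusted p = 0.0787) nor Foxf1 (adjusted p = 0.105) was called. Foxc2, a paralog of Foxc1, had 1 count in d6PGCLCs and 10 in PGCs, a ratio of 9.62 with an interval from 1.37 to 418 (adjusted p = 0.0705), and was not called. The likelihood ratio test of edgeR, an alternative, called it lower (adjusted p = 0.0276), which made 11 genes lower in place of 10. The counting intervals cover counting error only.

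Some forkhead genes lie in clusters, and 2 such clusters were measured. Foxf1, Foxc2 and Foxl1 lie within 46259 bp on chromosome 8, and together had 1 count in d6PGCLCs and 18 counts in PGCs. Each PGC library held 3 to 6 of these counts and no d6PGCLC library more than 1. Foxq1, Foxf2 and Foxc1 lie within 252466 bp on chromosome 13, with 35 counts in d6PGCLCs and 59 in PGCs. There the libraries overlapped (7 to 11 and 9 to 20 counts), since Foxq1 had between 7 and 14 counts in each library. Foxq1, an epithelial gene, shares 3200 of its 4843 annotated exonic bases with A530084C06Rik on the opposite strand, so that its reads may not be its own. Its counted isoform has 2845 bases, and the overlap with that isoform was not computed.

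Markers of some other cells were lower in d6PGCLCs along with these genes, and those of others were higher. Of 12 markers of granulosa and supporting cells, 8 were lower in d6PGCLCs and none higher (0). Over all genes, 16.1% were called higher and 15.4% lower, and the counts for the marker lists that follow stand beside these shares. The summed level of the granulosa and supporting cell markers was 3.48 to 9.19 CPM in d6PGCLCs and 16.1 to 25.8 CPM in PGCs, and 1 of them was at 0 in every d6PGCLC library but none in every PGC library. Irx3 had the highest level of these markers (4.33 ± 2.62 CPM in d6PGCLCs against 10.6 ± 2.03 CPM in PGCs). For 4 markers of mesonephric tubules the sums were 0.332 to 0.916 CPM and 4.24 to 6.499 CPM, with 1 marker at 0 throughout each group. Most of the PGC sum was Pax8 alone (0.516 ± 0.257 CPM in d6PGCLCs against 4.97 ± 1.18 CPM in PGCs). For 9 genes of mesoderm and endoderm, Foxa2 among them, the sums were 3.24 to 4.78 CPM and 12.01 to 16.1 CPM. Of these genes, 6 were called lower in d6PGCLCs and 1 higher, and 2 were at 0 in every d6PGCLC library. Hand1 had the highest level of them in PGCs (8.26 ± 1.32 CPM, against 0.548 ± 0.284 CPM in d6PGCLCs). For 7 endothelial markers the sums were higher in d6PGCLCs, 629 to 743 CPM against 384 to 462 CPM, with 3 called higher and none lower. Most of this was Pecam1, which germ cells also express (601 to 706 CPM against 359 to 447 CPM). The other 6 summed to 28.0 to 37.2 CPM and 14.8 to 25.6 CPM, and Kdr, Emcn, Tek and Tie1 were not called. The sum of the blood markers given above was likewise higher in d6PGCLCs. Markers of stroma summed to 3.82 to 30.4 CPM in d6PGCLCs and 2.31 to 7.58 CPM in PGCs, with 2 of 10 called in each direction and 2 at 0 in every d6PGCLC library. The 4 Sertoli and male markers summed to 0.166 to 0.485 CPM in d6PGCLCs and 0 to 1.05 CPM in PGCs, and none was called. The 12 germ cell markers summed to 4156 to 4752 CPM in d6PGCLCs and 4814 to 5411 CPM in PGCs, and none was at 0 in a whole group. Of these, 5 were higher and 5 lower in d6PGCLCs. Those higher were Prdm1 (log2 fold change 1.21 ± 0.09), Prdm14 (0.93 ± 0.10), Dppa3 (0.85 ± 0.11), Pou5f1 (0.74 ± 0.09) and Tfap2c (0.65 ± 0.09). Among those lower were the later germ cell genes Ddx4 (35.5 ± 6.60 against 760 ± 92.2 CPM) and Dazl (37.7 ± 23.2 against 1262 ± 241 CPM). The part of other cells in the counts of Foxa1, Foxa2, Foxc1 and Foxf1 was not tested.

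**Figure D5:**
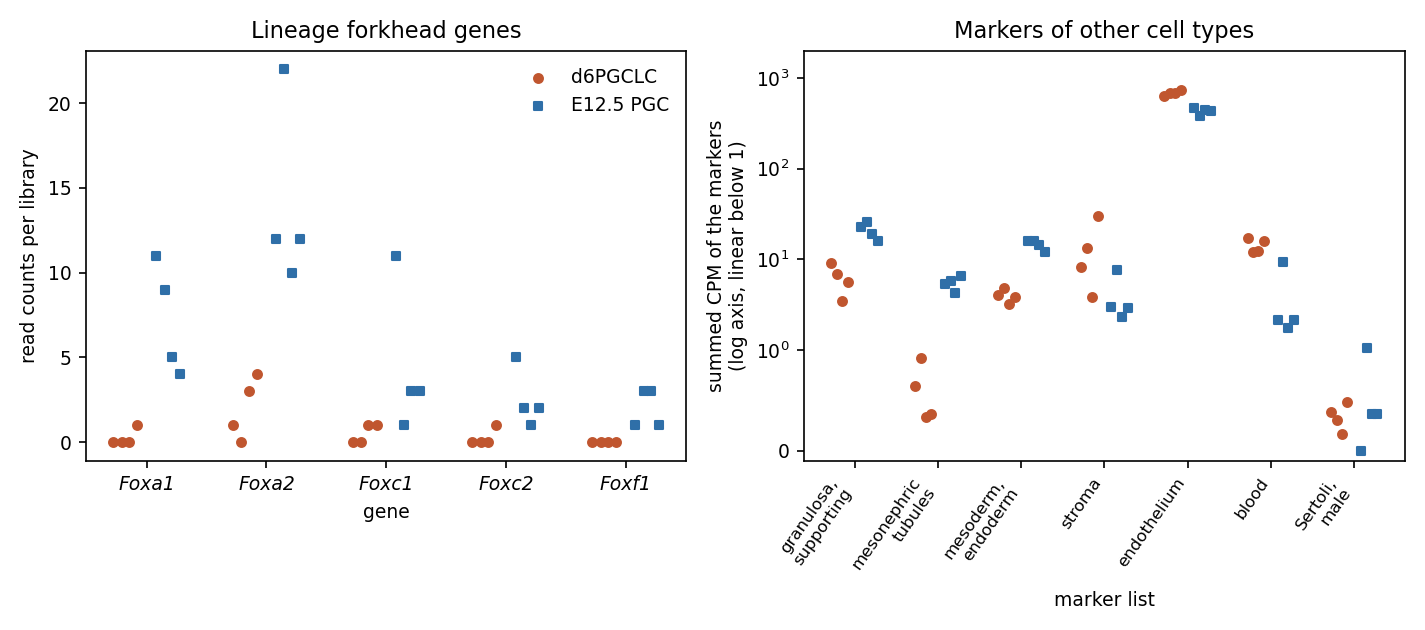
Read counts per library of 5 forkhead genes of endoderm and mesoderm (left), and summed CPM of 7 marker lists of other cell types per library (right; log axis, linear below 1), with circles for d6PGCLC and squares for E12.5 PGC libraries. Foxa2 has 10 to 22 counts in PGC libraries and at most 4 in d6PGCLC libraries, the sums for granulosa, mesonephric and mesoderm or endoderm markers are higher in all PGC libraries, those for endothelium and blood are higher in all d6PGCLC libraries, and those for stroma and Sertoli cells overlap.

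Foxd3 is a gene of the epiblast and neural crest. Measured beside it were 15 pluripotency, endoderm or axial mesoderm genes of tissues in which Foxd3 or FoxA factors act. Of these 15 genes, 5 were higher in d6PGCLCs, 8 were lower and 2 were not called (median log2 fold change -1.48). The shares were 33.3% and 53.3%, beside 16.1% and 15.4% of all genes. Pluripotency genes among them were higher, Nanog by 1.25 ± 0.10 (adjusted p = 2.29e-09), Sox2 by 0.84 ± 0.10 (adjusted p = 5.47e-07) and Pou5f1 by 0.74 ± 0.09 (adjusted p = 2.21e-06). The DNA methyltransferase gene Dnmt3b was higher by 0.94 ± 0.20 (adjusted p = 0.000879). The 8 lower genes were counted at means under 6 CPM in both groups, among them, named after their values were seen, the epiblast genes Pou3f1 (-1.48 ± 0.30, adjusted p = 0.000466) and Fgf5 (-1.49 ± 0.44, adjusted p = 0.0102, with overlapping groups) and the endoderm gene Sox17 (-2.14 ± 0.68, adjusted p = 0.0105). Otx2, a further epiblast gene, was not called. Foxd3 itself had 1 count in all, in E12.5 PGC replicate 1. In d6PGCLCs its count of 0 allowed a level of up to 0.249 to 0.383 CPM, depending on the library. Of the other genes below 1 CPM, Foxd1, Foxd4, Foxe1, Foxf2 and Foxn1 had 1 to 3 counts in all, each in PGC libraries. Foxn4 had at most 10 counts in any library and was not called.

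The spread within groups followed the libraries. d6PGCLC replicate 1 was the highest library of its group for 10 of the 17 genes at or above 1 CPM and the lowest for 5. The median exonic length was 5059 bp for the former and 2434 bp for the latter. E12.5 PGC replicate 1 was the highest of its group for 9 of the 17 genes (median 4669 bp), and E12.5 PGC replicate 2 the lowest for 11 (median 5449 bp). Replicate 1 was the highest library in both groups for 8 of the 17 genes, Foxj2, Foxn2, Foxn3, Foxo1, Foxo3, Foxo6, Foxp1 and Foxp4, with exonic lengths from 1643 to 7520 bp. Foxk1, with 7806 bp the longest of the 17, and Foxr1 were highest in replicate 4 of both groups, and Foxh1 (1486 bp) in replicate 3 of both. With an offset fitted to exonic length, the same 16 calls were made as without it: Foxo4 was higher by 1.18, Foxp4 by 1.91 and Foxj1 by 2.09 on the log2 scale, and Foxr1 was at -2.33, Foxh1 at -0.94 and Foxo1 at -0.32 (adjusted p = 0.0188).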

How the data were processed

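RNA-seq was analysed in 4 libraries of d6PGCLCs and 4 of E12.5 PGCs. The count table deposited by the authors holds unnormalized reads with a single genomic position, from single-end stranded libraries of poly(A) RNA aligned with STAR to GRCm38, taken on the exons of 1 isoform per gene picked at random, with its exonic length. Whether the counting used strand is not stated. Of 21950 Entrez identifiers, 21907 matched a RefSeq symbol. The genes Foxa3, Foxb1, Foxd2, Foxj3, Foxl2 and Foxm1 were not analysed here. The values of 1 gene are not reported here.

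Counts were normalized by TMM and fitted with cell type as the only term in edgeR 4.0.16 (glmQLFit and glmQLFTest, R 4.3.3), with no filter, and p-values were adjusted by Benjamini-Hochberg over all genes. CPM used TMM-scaled library sizes, and RPKM divided CPM by the exonic length. The forkhead genes and all lists were chosen with earlier results of these data known. The text names each forkhead gene that was called or had a mean of at least 1 CPM, and up to 4 genes of each list, those with the largest change among called genes with at least 100 mean counts. Further list genes and markers that are named (such as Smad2, Mixl1, T, Fgf8, Cer1, Cfap126 and the markers of other cells) fall outside this rule and were chosen after their values were seen. Alternatives were a likelihood ratio test, DESeq2 1.42.0, other normalizations and filters, a prior count of 2, a replicate block, a loess offset on exonic length (span 0.5) and each library left out in turn. Exonic overlaps came from all GENCODE transcripts of each gene in the same build and were not computed for the counted isoform. Promoters came from RefSeq. The p-values measure the spread between these pools.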

Additional observations from a re-analysis of the deposited data

Results flagged for a closer look

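The 21 named forkhead genes were examined for libraries that stand apart. For 3 of them, 1 library stood apart from the other 3 of its group by Dixon's ratio of gap to range. Foxp4 was at 17.4 CPM in d6PGCLC replicate 1, where the next value was 8.86 CPM. Foxc1 was at 1.37 CPM in E12.5 PGC replicate 1, where the next was 0.277 CPM. Foxa1 was at 0.121 CPM in d6PGCLC replicate 4, a single read, where the other 3 libraries were at 0. Of 41 sets of 4 values of these 21 genes examined, these 3 stood apart, and about 2.05 would by chance, 1 set in 20. The causes were not tested.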

How the results depend on the processing

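The 21 named forkhead genes were refitted under 18 alternatives, which gave 370 values. Both filters removed Foxa1, Foxc1 and Foxf1, filterByExpr also Foxa2, and DESeq2 gave no adjusted p for Foxf1. Of these, 343 had the direction and call given above, 24 lost the call and 3 changed sign. The sign changed only for genes that were not called: Foxj2 (-0.051) and Foxo3 (-0.021) without d6PGCLC replicate 1, and Foxi3 (0.0014) without E12.5 PGC replicate 1. With each library left out in turn their log2 fold changes ran from -0.051 to 0.26, from -0.021 to 0.19 and from -0.33 to 0.0014. The calls lost were those of Foxc1, Foxf1, Foxo1 and Foxp1. At an absolute log2 fold change of 2 or more, the count of genes lower in d6PGCLCs was 3 for genes with CPM above 1 in at least 3 samples, 2 with filterByExpr and 3 with a prior count of 2, against 6 above. The count of forkhead genes called lower, at any fold change, was 6 with filterByExpr, against 10. These filters left 19 and 17 forkhead genes, since the genes near the limit of detection fell out. With a replicate block, 4 genes were lower by at least 2 on the log2 scale, and 4 to 6 with each library left out in turn. The single gene that rose by at least 2, Foxj1, was below that size with a prior count of 2 (count 0, log2 fold change 1.97). With each library left out in turn the count was 1 to 2, and it was 2 without E12.5 PGC replicate 1, when Foxp4 passed as well.

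With a replicate block, 6 genes were called higher and 8 lower, and the calls of Foxc1 (adjusted p = 0.0787) and Foxf1 (adjusted p = 0.105) were lost, whereas the adjusted p of Foxo1 went from 0.0201 to 0.00012 and that of Foxn2 from 0.00524 to 4.6e-05. Over all genes it called 3708 higher and 3562 lower, against 3532 and 3387. The deviations of same-numbered libraries correlated at 0.302, 0.114, -0.0382 and 0.0411 over 11487 genes. The libraries of replicates 1 and 4 correlated best with their own number and those of 2 and 3 did not. The labels do not say that a number marks a shared batch, and the numbers were not taken to pair the libraries. Genes with 1 to 3 counts in all were too shallow for a difference to be seen.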
